A study of Homo sapiens with 48 samples.

Results

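The NF-kappaB subunits, their inhibitors and the noncoding RNA NKILA were followed by RNA-Seq through 48 libraries of 22Rv1, a human castration-resistant prostate cancer cell line. The members were the 10 genes NFKB1, NFKB2, RELA, RELB, NFKBIA, NFKBIB, NFKBIE, TNFAIP3, BCL3 and NKILA, chosen by symbol from 61815 entries of the count table. All 10 were found under 1 identifier each, and all 10 passed the filter on low counts together with the rest of the 20009 genes tested. RELB (7 to 47 counts per library) and TNFAIP3 (1 to 26 counts) lay at its lower edge. The list was proposed with results of these data in view, and NKILA joined it because of its level under the CDK8/19 inhibitor, so its values in those comparisons are given as a description with no test.

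NF-kappaB is a family of dimeric transcription factors held in the cytoplasm by inhibitor (IkappaB) proteins until an upstream kinase marks the inhibitor for degradation. Several inhibitor genes are themselves NF-kappaB targets, which gives the pathway its negative feedback. NKILA is a long noncoding RNA known to bind the NF-kappaB and IkappaB complex and to shield the inhibitor from phosphorylation. CDK8 and its paralog CDK19 are the kinases of the Mediator complex, which links transcription factors with RNA polymerase II, and they are known to act with NF-kappaB on some of its target genes.

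Cells were grown for 72 h with 0.1% DMSO (vehicle) or with 500 nM SNX631, a selective CDK8/19 inhibitor. Parental cells (Rv1-WT) and a subline transduced with a firefly luciferase lentivirus (Rv1-Luc) were cultured either in fetal bovine serum (FBS) or, to remove androgens, in serum stripped with charcoal (CSS). Both express their own CDK8 and CDK19. The other derivatives were grown in FBS alone. They come from cells in which CRISPR/Cas9 disrupted both kinases, and they re-express wild-type CDK8 (dKO-8), wild-type CDK19 (dKO-19), or the kinase-dead mutants CDK8-D173A (dKO-8M) and CDK19-D173A (dKO-19M) from lentiviral vectors. The 16 groups of line, medium and treatment held 3 libraries each, described as biological triplicates. Each derivative was carried as 1 line, so a difference between lines cannot be told apart from other differences that arose between them.

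Libraries held 13.2 to 31.5 M assigned counts (median 21.4 M). Those of Rv1-WT (13.2 to 18.2 M) and of Rv1-Luc (19.5 to 27.3 M) did not overlap in depth, so their comparison is also given with all libraries thinned to the smallest total. Of 12 markers of luminal prostate cancer cells, 12 averaged over 1 CPM (counts per M assigned counts, M standing for mega) in each group of Rv1-WT, Rv1-Luc, dKO-8 and dKO-19, and 10 or 11 in each group of dKO-8M and dKO-19M. Markers of T and myeloid cells summed to at most 4.24 CPM in any library. Those of fibroblasts and endothelium summed to 15.7 to 26.8 CPM in Rv1-WT, 9.68 to 16.3 CPM in Rv1-Luc and 4.2 to 8.01 CPM in the other lines, mostly from COL1A1 and LUM. Of the B and plasma cell list, SDC1, a proteoglycan that epithelial cells also make, stood at 62 to 271 CPM, and the other 12 genes summed to 4.97 to 32.3 CPM in Rv1-Luc against at most 3.06 CPM elsewhere. The 4 immunoglobulin genes among them summed to 3.22 to 27.5 CPM in Rv1-Luc and to at most 0.302 CPM in any other library. CDK8 RNA was highest in dKO-8M (118 to 134 CPM) and dKO-8 (60.5 to 71.5 CPM) against 25.4 to 28.3 CPM in Rv1-WT, and CDK19 RNA was highest in dKO-19 (469 to 519 CPM) and dKO-19M (298 to 360 CPM). By Western blot, the paper reports less CDK8 protein in dKO-8 than in parental cells. It reports far more CDK19 protein in dKO-19 and dKO-19M. The knockout itself was not visible at the RNA level, since CDK8 stood at 24.9 to 28.9 CPM in dKO-19 and CDK19 at 101 to 135 CPM in dKO-8. The vehicle library 1 of dKO-19M and the FBS vehicle library 1 of Rv1-Luc stood apart from their replicates (chi-square per degree of freedom up to 16 and 8.82, median of all replicate pairs 2), and the log2 changes of members printed for comparisons that use them are given with and without them.

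NKILA is annotated as an antisense gene on chromosome 20, bases 57710183 to 57712780 of the plus strand (GRCh38, GENCODE release 29), with transcripts of 1 and 2 exons. Its start lies inside PMEPA1, an androgen-induced gene that encodes a membrane protein and runs on the minus strand from base 57711536 down to 57648392. Of the exon bases of NKILA, 13.2% lie opposite PMEPA1 exons. The library kit keeps the strand of the RNA, but whether the counting used it is not given in the sources used here, so the level of PMEPA1 is given beside that of NKILA. The following stretch leads into the NKILA start, which is the first of its last 30 bases (RefSeq, GRCh38.p14, chr20:57710000-57710212, plus strand). Capitals mark a palindromic cAMP response element, TGACGTCA, which begins 171 bases before the NKILA start and 4 bases before an annotated start of PMEPA1 on the other strand.
NKILA: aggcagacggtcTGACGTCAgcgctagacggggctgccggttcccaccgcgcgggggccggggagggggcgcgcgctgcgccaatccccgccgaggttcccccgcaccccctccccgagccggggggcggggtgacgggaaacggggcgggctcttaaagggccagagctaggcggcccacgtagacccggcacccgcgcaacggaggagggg
The element was present on either strand in 1.85% of 35116 promoter windows (250 bases before to 50 after a start), and among the members in the NKILA window alone. The kappaB consensus was not found in that window, which says only that these letters are absent from these bases.

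The kappaB consensus, the sequence that NF-kappaB dimers recognise, was found in 7 of 13 windows of the 8 members that have any in the RefSeq table, against 11.3% of all windows. These 7 windows belonged to 6 members. The first match of each is shown in capitals within 30 bases, 5′ to 3′ along the gene, to set the feedback genes beside NKILA.
NFKB1: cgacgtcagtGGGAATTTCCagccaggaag
NFKB2: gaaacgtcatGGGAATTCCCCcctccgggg
NFKBIA: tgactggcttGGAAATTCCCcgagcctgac
NFKBIB: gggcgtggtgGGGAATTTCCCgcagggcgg
TNFAIP3: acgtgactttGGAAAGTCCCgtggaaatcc
BCL3: ccggctgcagGGGAAGTCCCggcgcccggc
These stretches lie at chr4:102501300-102501329, chr10:102394461-102394490, chr14:35404811-35404840 (minus strand), chr19:38899931-38899960, chr6:137867182-137867211 and chr19:44748700-44748729, in that order and otherwise on the plus strand. In NFKB2 and NFKBIB overlapping matches extend the capitals by 1 base. RELA and NKILA were the members whose windows held no match.

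Per kilobase of annotated exon, the members differed widely in level in Rv1-WT cells in FBS under vehicle. The IkappaB-alpha gene NFKBIA was highest at 22.5 CPM per kb, followed by the subunits RELA (14.2) and NFKB2 (12.5). NKILA (9.08 CPM per kb), NFKBIB (8.78), BCL3 (6.69), NFKB1 (5.9) and NFKBIE (2.76) were intermediate, while RELB (0.339) and TNFAIP3 (0.164) were close to the limit of detection. PMEPA1 stood at 103 CPM per kb on the same scale.

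NKILA varied most of the 10 members, with group means that spanned a 13.5-fold range from 3.98 CPM in Rv1-WT CSS cells with SNX631 to 53.8 CPM in dKO-19 vehicle cells. In Rv1-WT cells in FBS the vehicle libraries held 23.8, 25.1 and 21.9 CPM and the SNX631 libraries held 6.33, 7.97 and 8.09 CPM. In CSS the values were 8.95, 8.49 and 8.08 CPM under vehicle and 3.82, 3.89 and 4.24 CPM with SNX631. The drug-treated libraries lay below the vehicle libraries in both media, by 3.16-fold in FBS (7.46 ± 0.98 against 23.6 ± 1.6 CPM, mean ± SD, n = 3) and by 2.13-fold in CSS (3.98 ± 0.225 against 8.51 ± 0.433 CPM). In such bulk libraries fewer expressing cells and less RNA per cell cannot be told apart.

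**Figure D1:**
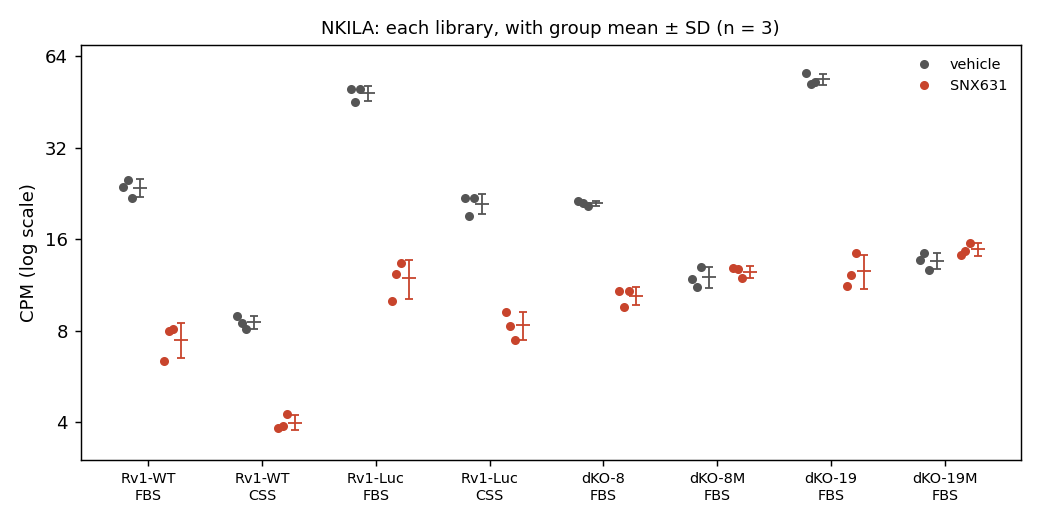
NKILA in each library (CPM, log scale) by line and medium, vehicle in grey and SNX631 in red, with the group mean ± SD (n = 3) beside the points. SNX631 libraries lie below vehicle libraries in the 6 settings with an active kinase and overlap them in dKO-8M and dKO-19M.

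Rv1-Luc cells started from a higher level. Their FBS vehicle libraries held 49.9, 45.2 and 50.1 CPM of NKILA, and those with SNX631 held 9.98, 12.3 and 13.4 CPM, which is 4.05-fold lower. In CSS the vehicle libraries held 21.9, 19.1 and 21.8 CPM and the SNX631 libraries held 9.22, 8.3 and 7.46 CPM, 2.52-fold lower. Leaving out the FBS vehicle library that stood apart left the log2 difference in FBS at -1.99, against -2.02 with it.

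In the derivatives, dKO-8 vehicle libraries held 21.3, 21.1 and 20.5 CPM of NKILA and the SNX631 libraries 10.8, 9.59 and 10.8 CPM, 2.01-fold lower. In dKO-19 the vehicle libraries held 56.5, 52 and 52.8 CPM and the SNX631 libraries 11.2, 12.2 and 14.4 CPM, 4.28-fold lower. The vehicle libraries of dKO-19 lay far above those of dKO-8, whereas the SNX631 libraries of the lines were close without overlapping.

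The kinase-dead lines showed no such gap. NKILA did not join the list through the drug comparisons in these lines, so they were tested. Its difference between dKO-19 and dKO-19M was already known, however, and the dKO-19M test was made with that in view. In dKO-8M the vehicle libraries held 11.8, 11.1 and 13 CPM of NKILA and the SNX631 libraries 12.9, 12.8 and 11.9 CPM, a log2 change of 0.07 (SE 0.0905, 95% interval -0.11 to 0.26, edgeR FDR = 0.863). In dKO-19M they held 13.7, 14.4 and 12.7 CPM under vehicle and 14.2, 14.6 and 15.5 CPM with SNX631, a log2 change of 0.12 (SE 0.0863, 95% interval -0.06 to 0.30, FDR = 0.558). Without the dKO-19M vehicle library that stood apart the second value was 0.13 (FDR = 0.671). As a description, the drug effect on the log2 scale was 1.08 more negative in dKO-8 than in dKO-8M and 2.22 more negative in dKO-19 than in dKO-19M, also without that library.

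NKILA was also lower in the lines with a mutated kinase. Under vehicle, NKILA fell by 0.81 on the log2 scale from dKO-8 to dKO-8M (SE 0.0845, 1.76-fold, FDR = 7.69e-12) and by 1.98 from dKO-19 to dKO-19M (SE 0.0751, 3.95-fold, FDR = 3.54e-30, and by 2.00 without the library that stood apart). These tests share the vehicle libraries of dKO-8 and dKO-19 with the drug comparisons, so they are no independent repeat of them. The difference of NKILA between dKO-19 and dKO-19M was also known before it was tested. The means of the kinase-dead lines under vehicle (12 ± 0.948 and 13.6 ± 0.847 CPM) stood near those of the active lines with SNX631 (10.4 ± 0.711 and 12.6 ± 1.62 CPM), although the dKO-8M vehicle libraries all lay above the dKO-8 libraries with SNX631. The neighbour PMEPA1 differed less. Its log2 change from dKO-19 to dKO-19M was -0.09 (SE 0.038, FDR = 0.0689, and -0.08 without the library that stood apart) and from dKO-8 to dKO-8M -0.16 (SE 0.0382, FDR = 0.000567).

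NKILA fell in androgen-depleted medium. Under vehicle it fell by 1.47 on the log2 scale in Rv1-WT (SE 0.0961, 2.78-fold, FDR = 9.68e-20) and by 1.21 in Rv1-Luc (SE 0.072, 2.31-fold, FDR = 1.89e-20, and by 1.19 without the library that stood apart), with every CSS library below every FBS library of its line. With SNX631 present the fall was 0.90 in Rv1-WT (SE 0.135, FDR = 1.18e-07). In Rv1-Luc with SNX631 the log2 change was -0.52 (SE 0.0969, FDR = 7.08e-05), a 1.44-fold difference below the fold limit of 1.5, which the fits without the FBS SNX631 library 1 (-0.63) or the CSS SNX631 library 1 (-0.60) passed. The depletion effect under vehicle was not shown to differ between the lines (Rv1-Luc minus Rv1-WT 0.27, SE 0.122, FDR = 0.0872, and 0.29 with FDR = 0.0695 without that library). These libraries are the ones whose drug comparisons put NKILA on the list, so the depletion tests are not independent of that choice. Against a 1.5-fold change, the fall in Rv1-WT with SNX631 was not called (FDR = 0.0874).

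PMEPA1 fell with androgen depletion under vehicle too, by 0.65 on the log2 scale in Rv1-WT (577 ± 16.7 to 367 ± 7.61 CPM, FDR = 3.12e-21) and by 0.69 in Rv1-Luc (907 ± 15.1 to 562 ± 26 CPM, FDR = 1.05e-21, and by 0.68 without the library that stood apart). Its drug changes in the active settings differed in direction with the medium, all below the fold limit. In FBS with SNX631 PMEPA1 was -0.54 in dKO-19 (FDR = 1.84e-17), -0.19 in dKO-8 (FDR = 0.000224), -0.11 in Rv1-Luc (FDR = 0.0409) and -0.07 in Rv1-WT. In CSS it was 0.23 in Rv1-WT (FDR = 5.5e-06), where NKILA was 2.13-fold lower, and 0.11 in Rv1-Luc (FDR = 0.0311). The effect in CSS minus that in FBS was 0.30 in Rv1-WT (FDR = 0.000308) and 0.21 in Rv1-Luc (FDR = 0.0461). Across the 16 group means of log2 CPM, which share lines and libraries, NKILA and PMEPA1 had a Pearson correlation of 0.595.

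The 5 highest NKILA group means belonged to vehicle cells with an active kinase. dKO-19 (53.8 CPM) and Rv1-Luc (48.4 CPM) came first and did not overlap each other, followed by Rv1-WT (23.6 CPM), dKO-8 (21 CPM) and Rv1-Luc in CSS (20.9 CPM), of which the last pair overlapped. The next 7 means, from 14.8 to 10.4 CPM, belonged to the 4 kinase-dead groups and to dKO-19, Rv1-Luc and dKO-8 in FBS with SNX631, and each of these overlapped its neighbour. Rv1-WT in CSS (8.51 CPM), Rv1-Luc in CSS with SNX631 (8.33 CPM) and Rv1-WT in FBS with SNX631 (7.46 CPM) overlapped likewise, and Rv1-WT in CSS with SNX631 was lowest.

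Among the other 14056 genes with a mean of at least 1 CPM, those whose 16 group means followed NKILA most closely were TRGJ1 (Pearson r = 0.917), RAB11B-AS1 (0.908), TRGJP (0.883), ALDOA (0.882) and HMGN2 (0.877). TRGJ1 and TRGJP are joining segments of the T cell receptor gamma locus that lie near each other, so their counts may not be independent. TRGJ1 went from 7.47 to 2.83 CPM with SNX631 in dKO-19 and stood at 2.79 CPM in dKO-19M vehicle cells. The changes of the others were smaller, such as 694 to 537 CPM for the glycolytic enzyme gene ALDOA in dKO-19.

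The 9 other members were tested under SNX631. In the 6 settings with an active kinase, 2 of 54 tests on them were called (FDR under 0.01 and a fold change over 1.5). By setting this was 0 of 9 in Rv1-WT FBS against 2.39% of all genes, 0 in Rv1-WT CSS (4.23%), 1 in Rv1-Luc FBS (3.67%), 0 in Rv1-Luc CSS (4.06%), 1 in dKO-8 (1.71%) and 0 in dKO-19 (3.41%). The DESeq2 test made the same number of calls, and the counts at an unadjusted p under 0.05 were 1, 2, 6, 3, 5 and 3 of 9. In the kinase-dead lines 0 of 20 tests on all 10 members were called by edgeR or by DESeq2, against 0.015% of genes for dKO-8M and 0.09% for dKO-19M, and the unadjusted p was under 0.05 for 1 of them (NFKBIB in dKO-19M, log2 change -0.21, and -0.09 without the library that stood apart).

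**Figure D2:**
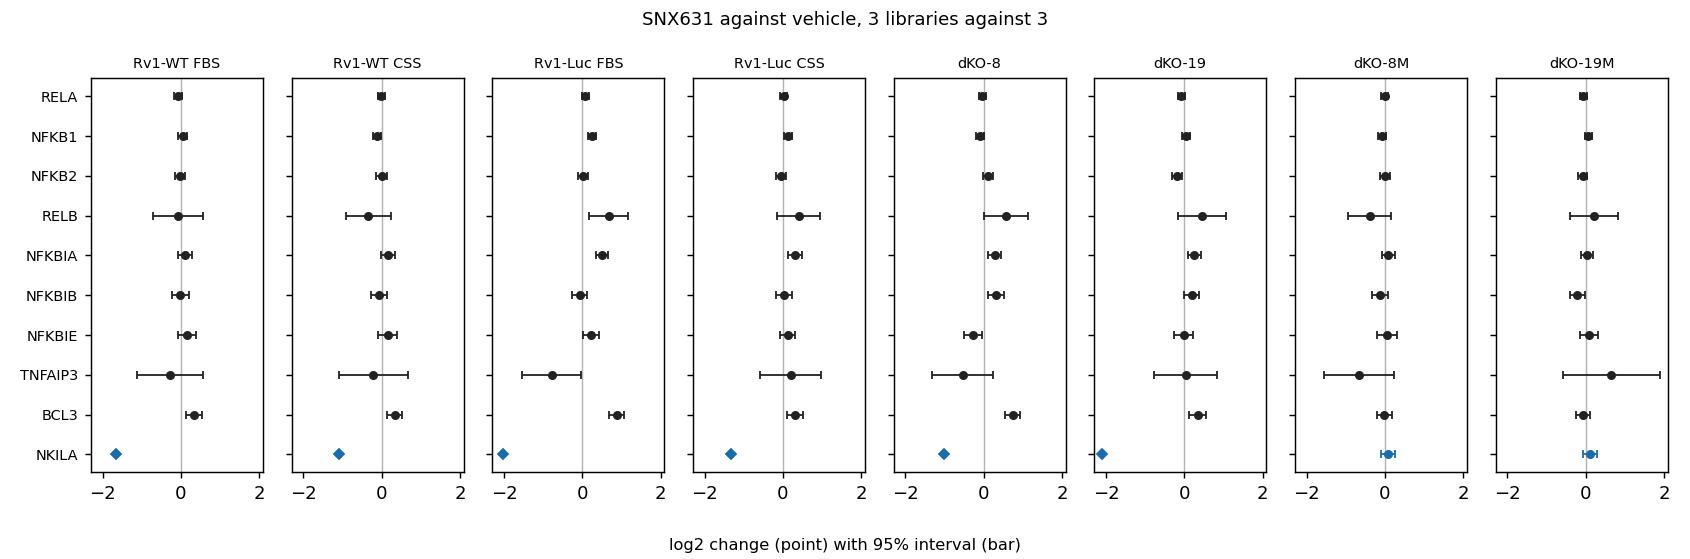
Log2 change of each member with SNX631 against vehicle in 8 settings, with the 95% interval of the edgeR fit. NKILA in the 6 active settings is shown as a diamond with no interval because the list was built on it. BCL3 lies right of 0 in those settings, up to 0.88 in Rv1-Luc FBS, and near 0 in dKO-8M and dKO-19M.

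BCL3, an atypical nuclear IkappaB protein that binds p50 and p52 dimers, gave both of these calls. In Rv1-Luc FBS cells the vehicle libraries held 17.9, 11.5 and 12.9 CPM and the SNX631 libraries 29.6, 23 and 25.4 CPM. BCL3 rose there by 0.88 on the log2 scale (SE 0.0928, 1.83-fold, FDR = 4.3e-11), and by 1.09 without the vehicle library that stood apart (FDR = 1.37e-14), which was the highest of its group. A fit of the libraries compared alone gave 0.87 with an FDR of 0.0102, which ended the call.

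In dKO-8 cells BCL3 rose by 0.74 (SE 0.0963, 1.67-fold, FDR = 3.5e-08), from 13.8, 13 and 14 CPM to 22.7, 21.7 and 23.9 CPM, with no overlap. Below the fold limit it was 0.33 in Rv1-WT FBS (FDR = 0.0134), 0.33 in Rv1-WT CSS (FDR = 0.00743), 0.31 in Rv1-Luc CSS (FDR = 0.0158) and 0.35 in dKO-19 (FDR = 0.0136). In dKO-8M (-0.01, FDR = 0.993) and dKO-19M (-0.07, FDR = 0.793, and -0.06 without the library that stood apart) no change was detected, with 95% intervals of -0.21 to 0.18 and -0.24 to 0.11. The counts of BCL3 carried fractions in 45.8% of libraries, against at most 6.25% for the other members. Fractions arise where a read is divided between features, so its values are less certain.

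The drug effect on BCL3 differed at an FDR under 0.05 in 4 of the 6 tests of a difference between settings. It was 0.75 larger on the log2 scale in dKO-8 than in dKO-8M (SE 0.136, FDR = 0.000104, called, against 0.905% of genes). The difference between dKO-19 and dKO-19M was 0.41 (SE 0.136, FDR = 0.042, and FDR = 0.06 without the dKO-19M library that stood apart). Rv1-Luc exceeded Rv1-WT in FBS by 0.55 (FDR = 0.0184), and within Rv1-Luc the effect in CSS was 0.57 less than in FBS (FDR = 0.0347). Without the Rv1-Luc FBS vehicle library 1 these last values were 0.77 (FDR = 3.77e-05) and -0.78 (FDR = 0.000105), and both passed the fold limit. The difference between dKO-19 and dKO-8 was -0.39 (SE 0.144, FDR = 0.113), and that between CSS and FBS in Rv1-WT was 0.00 (95% interval -0.27 to 0.28, FDR = 0.998). In all, the BCL3 value for the CDK8 pair was the 1 call among 63 interaction tests on the 9 members other than NKILA. The other 6 interactions held 0 calls by edgeR or DESeq2, with 3, 2, 1, 1, 4 and 5 members at an unadjusted p under 0.05, NKILA counted in the last. Their background was 2.07% for dKO-19 against dKO-19M, 0.885% for dKO-19 against dKO-8, 0.295% and 0.08% for CSS against FBS in Rv1-WT and Rv1-Luc, 0.175% for Rv1-Luc against Rv1-WT in FBS and 8.65% for the depletion effect.

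Under vehicle, BCL3 rose from dKO-19 to dKO-19M by 1.32 on the log2 scale (SE 0.0957, 2.49-fold, FDR = 2.97e-17). The dKO-19 libraries held 12.1, 10.7 and 12 CPM and the dKO-19M libraries 29.2, 28 and 29.6 CPM, the lowest and the highest of all groups. From dKO-8 to dKO-8M the log2 change was 0.36 (SE 0.0993, FDR = 0.00314, below the fold limit), with 18, 15.6 and 19.2 CPM in dKO-8M. Without the dKO-19M library that stood apart the first value was 1.30. These tests share their dKO-8 and dKO-19 vehicle libraries with the drug comparisons.

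**Figure D3:**
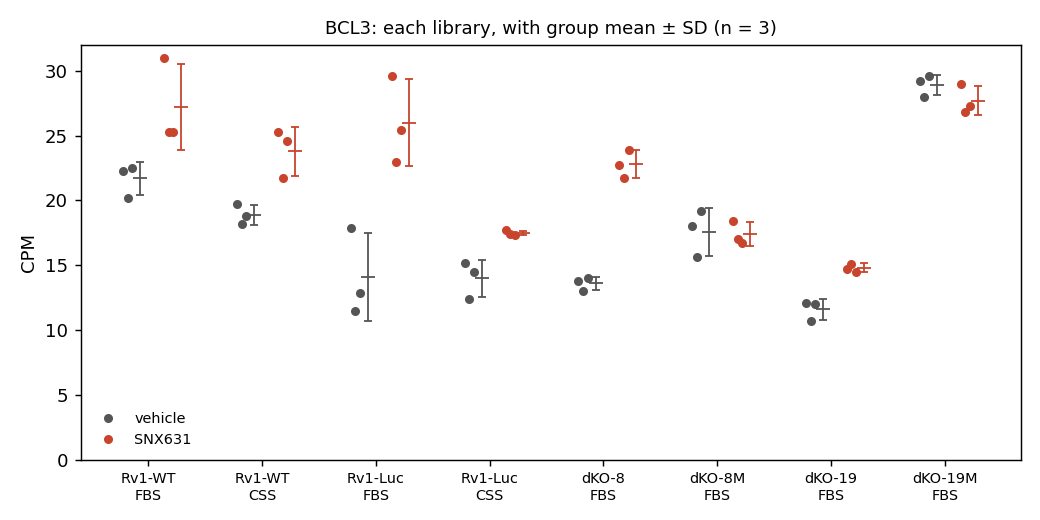
BCL3 in each library (CPM) by line and medium, vehicle in grey and SNX631 in red, with the group mean ± SD (n = 3). The dKO-19M libraries lie at 26.8 to 29.6 CPM with either treatment, and the dKO-19 libraries at 10.7 to 15.1 CPM.

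BCL3 also differed between sublines, where it fell by 0.62 on the log2 scale from Rv1-WT (22.3, 20.2 and 22.5 CPM) to Rv1-Luc in FBS under vehicle (SE 0.1, 1.53-fold, FDR = 5.97e-07). This value is close to the fold limit, and it was -0.49 and -0.56 without the Rv1-Luc vehicle library 2 or 3, which ended the call, and -0.83 without the library that stood apart. With library size as the only scaling it was -0.58, also below the limit. With SNX631, BCL3 in Rv1-Luc was 0.57 lower in CSS than in FBS (FDR = 5.39e-06, 1.48-fold). Its log2 changes with depletion under vehicle were -0.20 in Rv1-WT (FDR = 0.108) and -0.00 in Rv1-Luc (FDR = 0.988, and 0.21 with FDR = 0.18 without the Rv1-Luc FBS vehicle library 1). Over the 16 group means, BCL3 and NKILA had a Pearson correlation of -0.605.

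Of the classical inhibitors, NFKBIA, which encodes IkappaB-alpha, had positive log2 changes with the drug in the 6 active settings and also in dKO-8M (0.09, FDR = 0.801) and dKO-19M (0.03, FDR = 0.92, and 0.07 without the library that stood apart). In Rv1-Luc FBS cells the vehicle libraries held 70.7, 48.8 and 58.6 CPM and the SNX631 libraries 90.2, 73.4 and 89.5 CPM, a log2 change of 0.50 (SE 0.0802, FDR = 5.97e-06, 1.42-fold). The SD within these groups (11 and 9.53 CPM) was the largest of the 16 groups for NFKBIA. The SE rests on a spread shared by all groups, so it may be too small here. The highest vehicle value came from the library that stood apart, and without it the change was 0.65 (FDR = 8.69e-10) and passed the fold limit. Leaving out the SNX631 library 2 had the same effect on the call (0.60).

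NFKBIA was also higher by 0.31 in Rv1-Luc CSS (FDR = 0.00487), by 0.28 in dKO-8 (FDR = 0.0161) and by 0.26 in dKO-19 (FDR = 0.0157), all below the fold limit. In Rv1-WT the log2 change was 0.10 in FBS (FDR = 0.522) and 0.17 in CSS (FDR = 0.181). Its drug effect in FBS was 0.40 larger in Rv1-Luc than in Rv1-WT (FDR = 0.0871, and 0.55 with FDR = 0.000592 without the Rv1-Luc vehicle library 1). Under vehicle, dKO-8M held 85.2, 90.9 and 89.5 CPM against 64.5, 61.3 and 61.5 CPM in dKO-8, a log2 difference of 0.50 (SE 0.0805, FDR = 3.5e-06, below the fold limit). Between dKO-19M and dKO-19 it was 0.20 (FDR = 0.0511, and 0.15 with FDR = 0.222 without the library that stood apart).

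**Figure D4:**
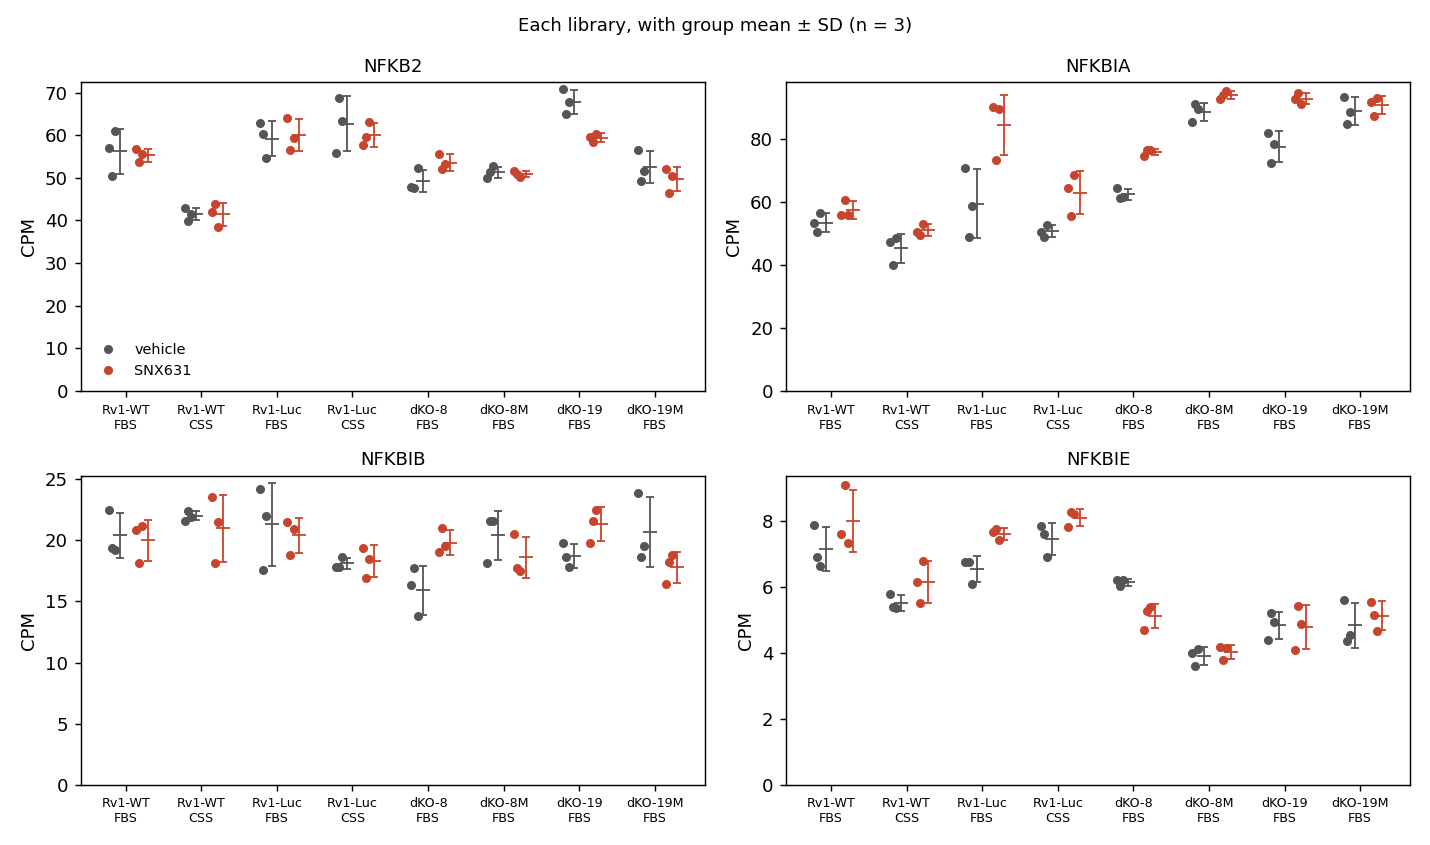
NFKB2, NFKBIA, NFKBIB and NFKBIE in each library (CPM) by line and medium, vehicle in grey and SNX631 in red, with the group mean ± SD (n = 3). The 2 CSS groups of Rv1-WT lie lowest for NFKB2, at 38.5 to 43.8 CPM, and the dKO-8M groups have the lowest NFKBIE means, 3.9 and 4.03 CPM.

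NFKBIE, which encodes IkappaB-epsilon, fell between the CDK8 lines by 0.66 on the log2 scale (SE 0.115, 1.58-fold, FDR = 5.44e-06). The dKO-8 vehicle libraries held 6.19, 6.01 and 6.2 CPM and the dKO-8M libraries 3.99, 3.6 and 4.12 CPM. With all libraries thinned to the smallest total the change was -0.53 (FDR = 0.00519), below the fold limit. Between dKO-19 (4.83 ± 0.413 CPM) and dKO-19M (4.83 ± 0.679 CPM) the means were equal, and the log2 difference was -0.13 (FDR = 0.5) without the library that stood apart. In Rv1-WT NFKBIE was 0.38 lower in CSS under vehicle (FDR = 0.0062) and 0.37 lower with SNX631 (FDR = 0.00554), while in Rv1-Luc the log2 changes were 0.19 (FDR = 0.228, and 0.21 without the vehicle library that stood apart) and 0.09 (FDR = 0.629). The depletion effect under vehicle differed between the lines by 0.57 (SE 0.154, FDR = 0.00269), and by 0.59 (FDR = 0.00305), past the fold limit, without that library.

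NFKBIB, which encodes IkappaB-beta, was not called in any comparison. Its log2 change with SNX631 in dKO-8 was 0.33 (SE 0.101, FDR = 0.0211), from 16.3, 17.7 and 13.8 CPM to 19, 21 and 19.5 CPM. This effect exceeded that in dKO-8M by 0.45 (FDR = 0.0398). Under vehicle the NFKBIB level of dKO-8M exceeded that of dKO-8 by 0.36 (FDR = 0.00413), and the SNX631 libraries of dKO-8 overlapped the vehicle libraries of dKO-8M. As for the other members, these drug and mutant comparisons share the dKO-8 vehicle libraries. The NFKBIB mean of those libraries (15.9 CPM) was the lowest of the 16 groups.

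TNFAIP3, which encodes the ubiquitin-editing inhibitor A20, was called in 1 comparison, from few counts. The dKO-19M vehicle libraries held 3, 1 and 8 counts and the dKO-19 vehicle libraries 8, 14 and 17 counts. The ratio of the summed counts per effective library was 0.247 (exact 95% interval 0.118 to 0.482, counting error only), and edgeR gave a log2 change of -1.98 (SE 0.497, FDR = 0.00119). Leaving out 1 library moved the log2 change between -1.56 and -2.91. The call ended without the dKO-19 vehicle library 3 (-1.80, FDR = 0.012) or the dKO-19M vehicle library 2 (-1.56, FDR = 0.0153), with all libraries thinned to the smallest total (-2.04, FDR = 0.0208) and against a 1.5-fold change (FDR = 0.0248). The lowest value was that without the dKO-19M vehicle library 3, and without the library that stood apart it was -1.81 (FDR = 0.00798). With SNX631, dKO-19M held 4, 10 and 1 counts against 18, 11 and 11 in dKO-19, a ratio of 0.385 (0.198 to 0.712).

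Among the subunits, RELA, which encodes the transactivating p65, and NFKB1, the source of p50, had group means within narrow ranges. Those of RELA lay between 73.1 and 106 CPM and none of its 15 log2 changes between groups exceeded 0.17 in size. NFKB1 lay between 32.6 and 47 CPM, and its highest drug change was 0.24 in Rv1-Luc FBS (SE 0.0497, FDR = 0.000212, and 0.21 without the library that stood apart), from 31.8, 33.2 and 34.2 CPM to 39.1, 40.1 and 37.8 CPM. Its log2 changes in the other active settings were -0.11 to 0.13.

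NFKB2, the source of p52, differed with the medium in Rv1-WT. It was lower in CSS by 0.44 on the log2 scale under vehicle (SE 0.0669, FDR = 1.5e-07) and by 0.42 with SNX631 (FDR = 5.1e-07), both below the fold limit. The FBS vehicle libraries held 57.1, 50.4 and 61 CPM and the CSS vehicle libraries 42.9, 39.9 and 41.6 CPM, with no overlap. In Rv1-Luc the CSS libraries (55.9, 68.8 and 63.4 CPM) overlapped the FBS libraries (62.8, 60.3 and 54.6 CPM), and the depletion effect under vehicle differed between the lines by 0.51 (SE 0.09, FDR = 5.07e-06, and by 0.56 without the Rv1-Luc FBS vehicle library 1).

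NFKB2 was also lower with SNX631 in dKO-19 (log2 change -0.19, FDR = 0.0167), from 70.8, 65 and 67.7 CPM to 59.6, 58.3 and 60.4 CPM. That effect was 0.31 below that in dKO-8 (FDR = 0.0211). Under vehicle the log2 difference of NFKB2 between dKO-19M and dKO-19 was -0.37 (SE 0.0604, FDR = 1.24e-06, and -0.44 without the library that stood apart). RELB, the usual partner of p52, was measured at 7 to 47 counts and its log2 change with SNX631 in Rv1-Luc FBS was 0.68 (SE 0.243, FDR = 0.0384), from 23, 26 and 24 counts to 35, 47 and 43 counts. Without the vehicle library that stood apart it was 0.60 (FDR = 0.125).

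For the comparisons other than the drug, calls were also set against the background. Unlike the drug counts in the active settings, these counts include NKILA, which joined the list through libraries that these comparisons share. Androgen depletion was called for 1 of 10 members in Rv1-WT under vehicle (10.9% of all genes), 1 with SNX631 (7.83%), 1 in Rv1-Luc under vehicle (1.49%) and 0 with SNX631 (1.51%, with 4 of 10 at an unadjusted p under 0.05 and 0 calls by DESeq2), and each call was NKILA. Between dKO-8M and dKO-8, 2 of 10 were called (NKILA and NFKBIE) against 7.03% of genes, and between dKO-19M and dKO-19, 3 of 10 (NKILA, BCL3 and TNFAIP3) against 7.6%. Between Rv1-Luc and Rv1-WT, 2 of 10 were called against 17.8%. NKILA rose there by 1.04 on the log2 scale (SE 0.0748, 2.05-fold, FDR = 5.3e-18) and PMEPA1 by 0.65 (SE 0.0386, FDR = 1.21e-21). With all libraries thinned to the smallest total, NKILA rose by 1.04, PMEPA1 by 0.64 and BCL3 fell by 0.60, and all 3 remained called. Without the library that stood apart the values of NKILA and PMEPA1 were 1.01 and 0.64. The immunoglobulin genes were also higher in Rv1-Luc, as given above, and their part in this comparison was not tested.

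**Figure D5:**
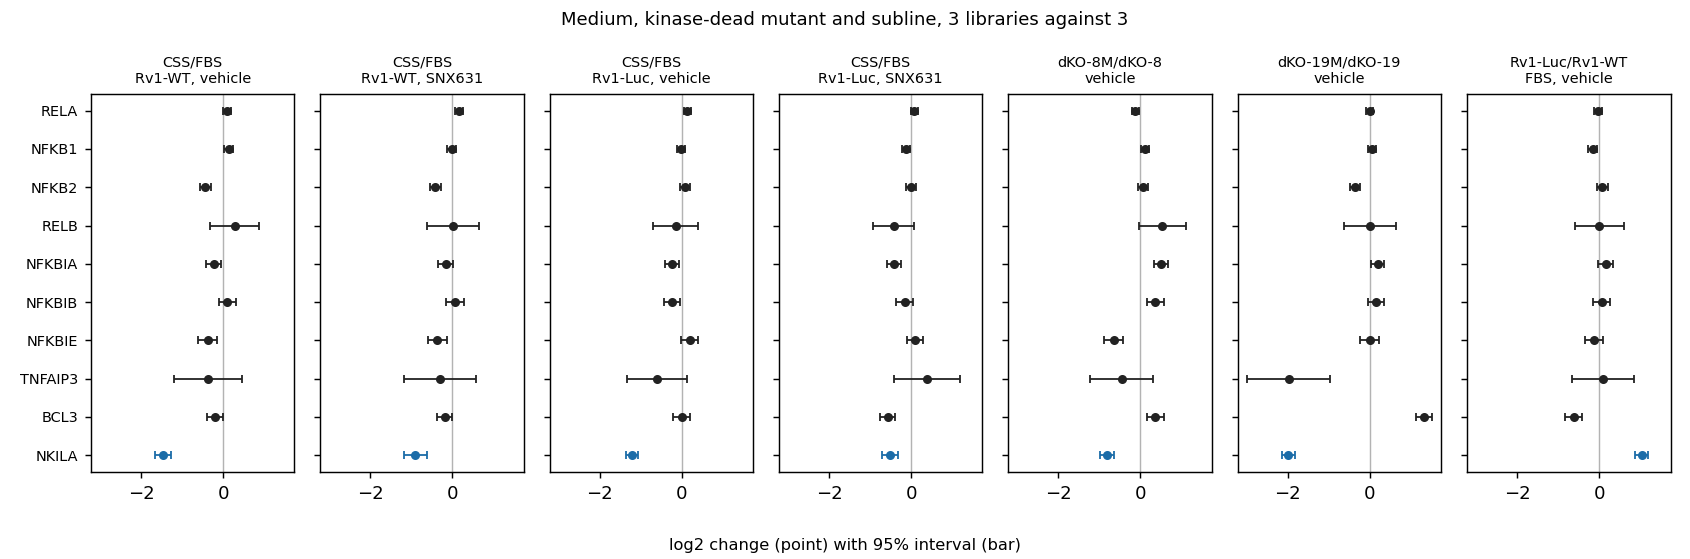
Log2 change of each member, with the 95% interval of the edgeR fit, for CSS against FBS in Rv1-WT and Rv1-Luc, for kinase-dead against active derivatives and for Rv1-Luc against Rv1-WT. NKILA lies between -1.98 and -0.52 in the medium and mutant comparisons and at 1.04 between the sublines, and BCL3 reaches 1.32 in dKO-19M against dKO-19.

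The wider pathway was read from 78 further genes, of which 54 passed the filter. All 10 kinases and 21 adaptors and ubiquitin enzymes were tested, but only 10 of 30 textbook target genes and 9 of 13 receptors. The remaining targets were below the filter at this depth. With SNX631, 2 of 54 were called in Rv1-WT FBS, 5 in Rv1-WT CSS, 2 in Rv1-Luc FBS and 1 in Rv1-Luc CSS (3.7%, 9.26%, 3.7% and 1.85% of the list, against the backgrounds given above). In dKO-8, dKO-19, dKO-8M and dKO-19M 0 were called by edgeR or DESeq2, with 13, 12, 5 and 10 of 54 at an unadjusted p under 0.05. The median log2 change of the 54 lay between -0.05 and 0.02 in the 8 settings, against at most 0.01 in size for all genes.

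PTGS2, which encodes cyclooxygenase 2, was called in all 4 settings of Rv1-WT and Rv1-Luc. It rose with SNX631 by 2.22 on the log2 scale in Rv1-WT FBS (0.89 to 4.18 CPM, FDR = 2.88e-08), by 2.02 in Rv1-WT CSS (4.44 to 17.9 CPM, FDR = 5.02e-14), by 1.39 in Rv1-Luc FBS (FDR = 0.000743) and by 1.08 in Rv1-Luc CSS (FDR = 0.000895). In the dKO derivatives PTGS2 group means were only 0.0732 to 0.313 CPM, so the absence of a call there cannot show a lack of response. IRF1, an interferon-responsive transcription factor gene, fell by 0.86 in Rv1-WT CSS (FDR = 7.17e-05) and by 0.64 in Rv1-Luc FBS (FDR = 0.00152). IER3 and GADD45B rose in Rv1-WT CSS, by 0.88 (5.35 to 9.97 CPM, FDR = 6.7e-06) and 0.64 (13 to 20.4 CPM, FDR = 3.03e-08). Of the 10 textbook targets tested, 3 were called higher and 1 lower in Rv1-WT CSS (40%, against 4.23% of all genes). The share was 10% in Rv1-WT FBS, 20% in Rv1-Luc FBS, 10% in Rv1-Luc CSS and 0% in dKO-8 and dKO-19. NFKBIZ, which encodes another atypical IkappaB protein, rose in Rv1-WT FBS by 0.88 (14.7 to 27 CPM, FDR = 1.59e-11). Below the fold limit it rose by 0.44 in Rv1-WT CSS (FDR = 1.81e-06), 0.37 in Rv1-Luc FBS (FDR = 0.000743), 0.41 in Rv1-Luc CSS (FDR = 4.09e-05) and 0.52 in dKO-19 (FDR = 0.000471). In dKO-8 its change was 0.21 (FDR = 0.352). IL1R1, the interleukin-1 receptor gene, rose in Rv1-WT CSS by 0.96 (21.5 to 41.7 CPM, FDR = 1.29e-13). Its group means in the dKO derivatives were 0.0124 to 0.0601 CPM, where the limit given for PTGS2 also holds.

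With androgen depletion 6 of the 54 were called in Rv1-WT under vehicle (11.1%, against 10.9% of all genes) and 6 with SNX631 (11.1%, against 7.83%). In Rv1-Luc 1 was called under vehicle (1.85%, against 1.49%) and 1 with SNX631 (1.85%, against 1.51%). NFKBIZ was among the calls in all 4 comparisons. It rose by 1.45 in Rv1-WT under vehicle (14.7 to 40.4 CPM, FDR = 8.39e-22), by 1.02 with SNX631, and by 0.60 and 0.63 in Rv1-Luc. Between dKO-8M and dKO-8 under vehicle, 5 of the 54 were called (9.26%, against 7.03% of all genes). Between dKO-19M and dKO-19 it was 2 of the 54 (3.7%, against 7.6%). BIRC3, an inhibitor of apoptosis and ubiquitin ligase of the pathway, fell in both kinase-dead lines, by 0.87 in dKO-8M (FDR = 0.000207) and by 1.18 in dKO-19M (2.42 to 1.07 CPM, FDR = 2.47e-05).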

How the data were processed

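The deposited table held counts per gene for 48 libraries of total RNA, with fractions in part of the values (81.6% of nonzero values were whole), so they were treated as estimated counts and rounded to whole numbers for the tests. Per the labels, processing by the authors used FastQC, cutadapt 2.8, STAR 2.7.2b and featureCounts (Subread 2.0.3) with the builds GRCh38.p13 and GRCm39. The counting options and the annotation release are not given in the sources used here. The 2 transgene entries were left out.

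The 10 members and the gene lists were chosen with earlier results of these data known. Genes passed filterByExpr (minimum count 10), libraries were scaled by TMM, and 1 edgeR 4.0.16 quasi-likelihood fit over all 16 groups (32 residual degrees of freedom, R 4.3.3) gave the tests. FDR is the Benjamini-Hochberg adjusted p over 20009 genes. CPM were computed on TMM-scaled library sizes. A call needed an FDR under 0.01 and a fold change over 1.5. All members were named, with PMEPA1, at most 4 genes of each pathway list and the 5 genes most like NKILA. DESeq2 1.42.0 was an alternative. On simulated data the test called 61.2% of 67 genes changed 2-fold and 84.8% of 66 genes changed 4-fold, with 1 false call, for SNX631 in Rv1-WT FBS.

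Libraries with the same replicate number were compared by the correlation of their deviations from the group means (-0.211 to 0.454, over 0.1 in 13 of 36 pairs). For SNX631 in dKO-19M all 3 were over 0.1, and there the block changed no call. Intervals of count ratios cover counting error only. Nothing in the sources says how far the triplicates were separate cultures beyond the word biological, so p-values measure the spread between these libraries. That spread was estimated for each gene over all 16 groups, so it can be too small for a group whose libraries differ more. Positions are from GENCODE release 29 and promoter windows from RefSeq (GRCh38.p14).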

Additional observations from a re-analysis of the deposited data

Results flagged for a closer look

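Differences between effects passed an FDR of 0.05 for 4 members in the edgeR interaction tests. For BCL3 the SNX631 effect on the log2 scale was larger in dKO-8 than in dKO-8M by 0.75 (FDR = 0.000104), larger in dKO-19 than in dKO-19M by 0.41 (FDR = 0.042), larger in Rv1-Luc than in Rv1-WT in FBS by 0.55 (FDR = 0.0184), and different between CSS and FBS in Rv1-Luc by -0.57 (FDR = 0.0347). For NFKBIB the SNX631 effect in dKO-8 exceeded that in dKO-8M by 0.45 (FDR = 0.0398). For NFKB2 the SNX631 effect in dKO-19 differed from that in dKO-8 by -0.31 (FDR = 0.0211). The depletion effect under vehicle was higher in Rv1-Luc than in Rv1-WT for NFKB2, by 0.51 (FDR = 5.07e-06), and for NFKBIE, by 0.57 (FDR = 0.00269). Only the first of these also passed the 1.5-fold limit with an FDR under 0.01.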

How the results depend on the processing

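No value with an FDR under 0.05 in the main fit changed sign, nor did the NKILA values given as a description. Some values with a larger FDR did. For TNFAIP3 with SNX631 in dKO-19M the log2 change was 0.66, and -0.28 to 1.59 with a library left out. For RELB with SNX631 in dKO-8M it was -0.39, and -0.40 to 0.33 under the other processing choices. The count of members called under SNX631 in the active settings (2) was 15 at an FDR under 0.05 with no fold limit, 0 in a test against a 1.5-fold change, 1 with the libraries compared alone, and 2 to 3 with a library left out. For androgen depletion (3) it was 14 at an FDR under 0.05, 2 in the test against a 1.5-fold change, 4 with no filter and with the libraries thinned, and 3 to 4 with a library left out. Between kinase-dead and active derivatives (5) it was 10 at an FDR under 0.05, 2 in the test against a 1.5-fold change, and 3 with the libraries thinned, without NFKBIE and TNFAIP3. Between Rv1-Luc and Rv1-WT (2) it was 1 in the test against a 1.5-fold change, 1 with library size as the only scaling, and 1 to 2 with a library left out. For the interactions (1) it was 8 at an FDR under 0.05, 0 in the test against a 1.5-fold change, and 1 to 4 with a library left out. The cause of these changes was not tested. In the kinase-dead lines the count was 0 in every fit.

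Of the 220 single values, 220 kept their side of the threshold with the replicate block, which compares libraries within a line and so gives no paired value between lines. With the DESeq2 size factors and the DESeq2 test 220 kept it. The NKILA values given as a description have no threshold. They were counted as kept where they moved by less than the SD within groups. With the libraries compared alone TNFAIP3 gave no value for dKO-19M against dKO-19 or for SNX631 in dKO-19M, where it was below the filter. RELB and TNFAIP3 were limited by depth.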
